A study of Homo sapiens with 18 samples.

Results

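The 10 genes described here encode 7 cadherins (CDH1, CDH2, CDH3, CDH4, CDH6, CDH11 and CDH13) and 3 catenins (CTNNA1, CTNNB1 and CTNND1), out of 27968 genes listed per library. They were chosen by name, and with the values of CDH1 in A549 in view, where CDH1 was higher with 2 siRNAs against BLM and lower with another. For that reason the A549 siRNA values of these genes are given as a description with no test. Tests on them are given for the other cell line and for the difference between the control libraries of the lines.

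RNA sequencing was done on the lung cancer line A549 and the breast cancer line MDA-MB-231, both grown in DMEM with 10% serum. A549 cells were transfected with siRNA1, siRNA2 or siRNA3 against BLM, a RecQ DNA helicase, or with a control siRNA. MDA-MB-231 cells were transfected with siRNA1 or a control siRNA. Each of the 6 groups had 3 libraries, 18 in all. A shared name is the only sign that siRNA1 is the same molecule in both lines. The protocols name flat culture and 3D culture, and the labels do not tell which of these a library came from. The labels do not say whether replicate libraries were separate cultures. A p-value therefore reflects only how far these libraries vary, and that variation may be technical.

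Classical cadherins are membrane proteins that hold neighbouring cells together by calcium-dependent binding of like molecules. Their cytoplasmic tails bind beta-catenin (CTNNB1) and p120-catenin (CTNND1), and alpha-catenin (CTNNA1) links that complex to actin. E-cadherin (CDH1) is the main cadherin of epithelia, N-cadherin (CDH2) is typical of neural and mesenchymal cells, and carcinoma cells often carry a mixture. CDH1, CDH2, P-cadherin (CDH3) and R-cadherin (CDH4) are type I cadherins, whereas K-cadherin (CDH6) and OB-cadherin (CDH11) are type II. T-cadherin (CDH13) has no cytoplasmic tail and is tied to the membrane by a lipid anchor, so it is not a classical cadherin in the strict sense. Beta-catenin also acts in Wnt signalling as a partner of TCF and LEF transcription factors.

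The RefSeq promoter table held 4 of the 10 genes (CDH2, CDH4, CTNNA1 and CTNNB1). As an example CDH2 is shown, whose mRNA, like that of CDH4 and CTNNA1, lay on opposite sides of control with siRNA1 in the lines. The 250 bases upstream of each of its annotated starts are given 5′ to 3′ on the minus strand of GRCh38.p14, whereas the deposited files used hg19. Capitals mark TATAAA.
CDH2 window chr18:28177131-28177380: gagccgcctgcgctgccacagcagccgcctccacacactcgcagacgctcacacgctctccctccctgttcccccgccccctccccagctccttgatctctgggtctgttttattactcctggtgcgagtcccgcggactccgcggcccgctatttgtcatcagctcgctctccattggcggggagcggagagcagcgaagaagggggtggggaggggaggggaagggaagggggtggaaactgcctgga
CDH2 window chr18:28036642-28036891: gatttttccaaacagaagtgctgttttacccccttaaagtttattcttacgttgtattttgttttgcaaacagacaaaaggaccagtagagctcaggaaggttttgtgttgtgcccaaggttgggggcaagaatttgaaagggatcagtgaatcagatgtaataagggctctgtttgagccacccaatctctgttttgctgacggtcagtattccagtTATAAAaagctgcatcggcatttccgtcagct
The window at chr18:28177131-28177380 was 66.0% G or C and held no TATAAA on either strand. The window at chr18:28036642-28036891 was 42.0% G or C and held 1 TATAAA, at positions -32 to -27 from the start. Of 35116 RefSeq windows of this length, 10.7% held TATAAA on either strand. Neither CDH2 window held CACCTG on either strand, an E-box form that Snail and ZEB repressors are known to bind, and 17.5% of the 35116 windows held it. These matches describe letters and no binding was measured.

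Library totals ran from 30143047 to 40328208 expected counts. BLM, the siRNA target, had 1.17 to 1.19 CPM, which is counts scaled to library size, with siRNA1, 10.3 to 10.8 with siRNA2 and 6.18 to 6.81 with siRNA3 in A549, against 72.2 to 82.4 in the A549 control libraries. In MDA-MB-231 it had 5.07 to 5.23 CPM with siRNA1, against 33.5 to 35.9 in control. Library 3 of A549 siRNA3 stood apart from its group, with an SD of 0.343 for its deviations from the group mean over genes (log2 CPM), against 0.158 to 0.257 in the other 17 libraries. The 6 fibroblast markers summed to 10.15 to 10.97 TPM with siRNA1, 9.77 to 10.5 TPM with siRNA2 and 18.7 to 20.3 TPM with siRNA3, against 7.75 to 9.48 TPM in A549 control, with DCN under 0.05 TPM in all 4 groups. Most of each sum was THY1, at 19.3 TPM with siRNA3, against 8.01 TPM in control, the 1 of 4 tested markers that rose with siRNA3 (1.27 ± 0.10, edgeR, adjusted p = 1.4e-07). LUM and PDGFRA rose with siRNA1 and with siRNA2 (edgeR, largest adjusted p = 0.0207), LUM from under 10 counts in every control library and PDGFRA from 7 to 19 counts. Endothelial markers summed to 0.5 TPM or less in every A549 library and to between 11.95 and 18.9 TPM in MDA-MB-231. Of the leukocyte markers, CD3E and PTPRC were under 0.05 TPM in all A549 libraries. CD68 averaged 24.0 TPM with siRNA1, 32.4 TPM with siRNA2 and 37.4 TPM with siRNA3, against 21.6 TPM in A549 control, and passed with siRNA2 (0.50 ± 0.09) and siRNA3 (0.80 ± 0.09, edgeR, larger adjusted p = 0.000217). CD14 rose with siRNA2 (0.52 ± 0.19) and fell with siRNA3 (-1.50 ± 0.22, edgeR, larger adjusted p = 0.0287), and LYZ, under 10 counts in every control library, averaged 0.9 TPM with siRNA2, against 0.01 TPM in control (edgeR, adjusted p = 3.71e-05). LUM, PDGFRA and LYZ passed the count filter only through siRNA groups in which they were higher, so their adjusted p-values give no support for a rise. In bulk libraries, fewer cells with an mRNA and less of it per cell cannot be told apart.

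In A549, CDH1 lay above control with siRNA1 and siRNA2 and far below it with siRNA3. With siRNA1 its level was 143, 152 and 147 CPM, with siRNA2 179.6, 176 and 169 CPM, and with siRNA3 4.24, 4.21 and 2.96 CPM, against 49.5, 41.7 and 44.9 CPM in the control libraries. On this scale no group overlapped another: siRNA2 was highest, then siRNA1, then control, and siRNA3 was far below the rest. The ratios of mean CPM to control were 3.25 with siRNA1, 3.86 with siRNA2 and 0.0838 with siRNA3. On the log2 scale the differences were 1.70 ± 0.10, 1.95 ± 0.10 and -3.57 ± 0.12 (standard error, edgeR fit of 12 libraries). Without library 3 of siRNA3 the last value was -3.42. Corrected for length, CDH1 averaged 68.5 ± 4.03 TPM with siRNA1, 72.7 ± 0.931 with siRNA2 and 1.49 ± 0.412 with siRNA3, against 17.6 ± 2.01 in control (SD, n = 3 each). On the TPM scale siRNA1 (65.4 to 73.0) and siRNA2 (72.1 to 73.8) overlapped.

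In MDA-MB-231 CDH1 was low in both groups. It had 3.70, 3.40 and 4.29 CPM with siRNA1, against 4.82, 3.70 and 4.37 CPM in control, and the ranges overlapped. The log2 difference of -0.18 ± 0.14 did not pass the test (edgeR quasi-likelihood test, adjusted p = 0.308).

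**Figure D1:**
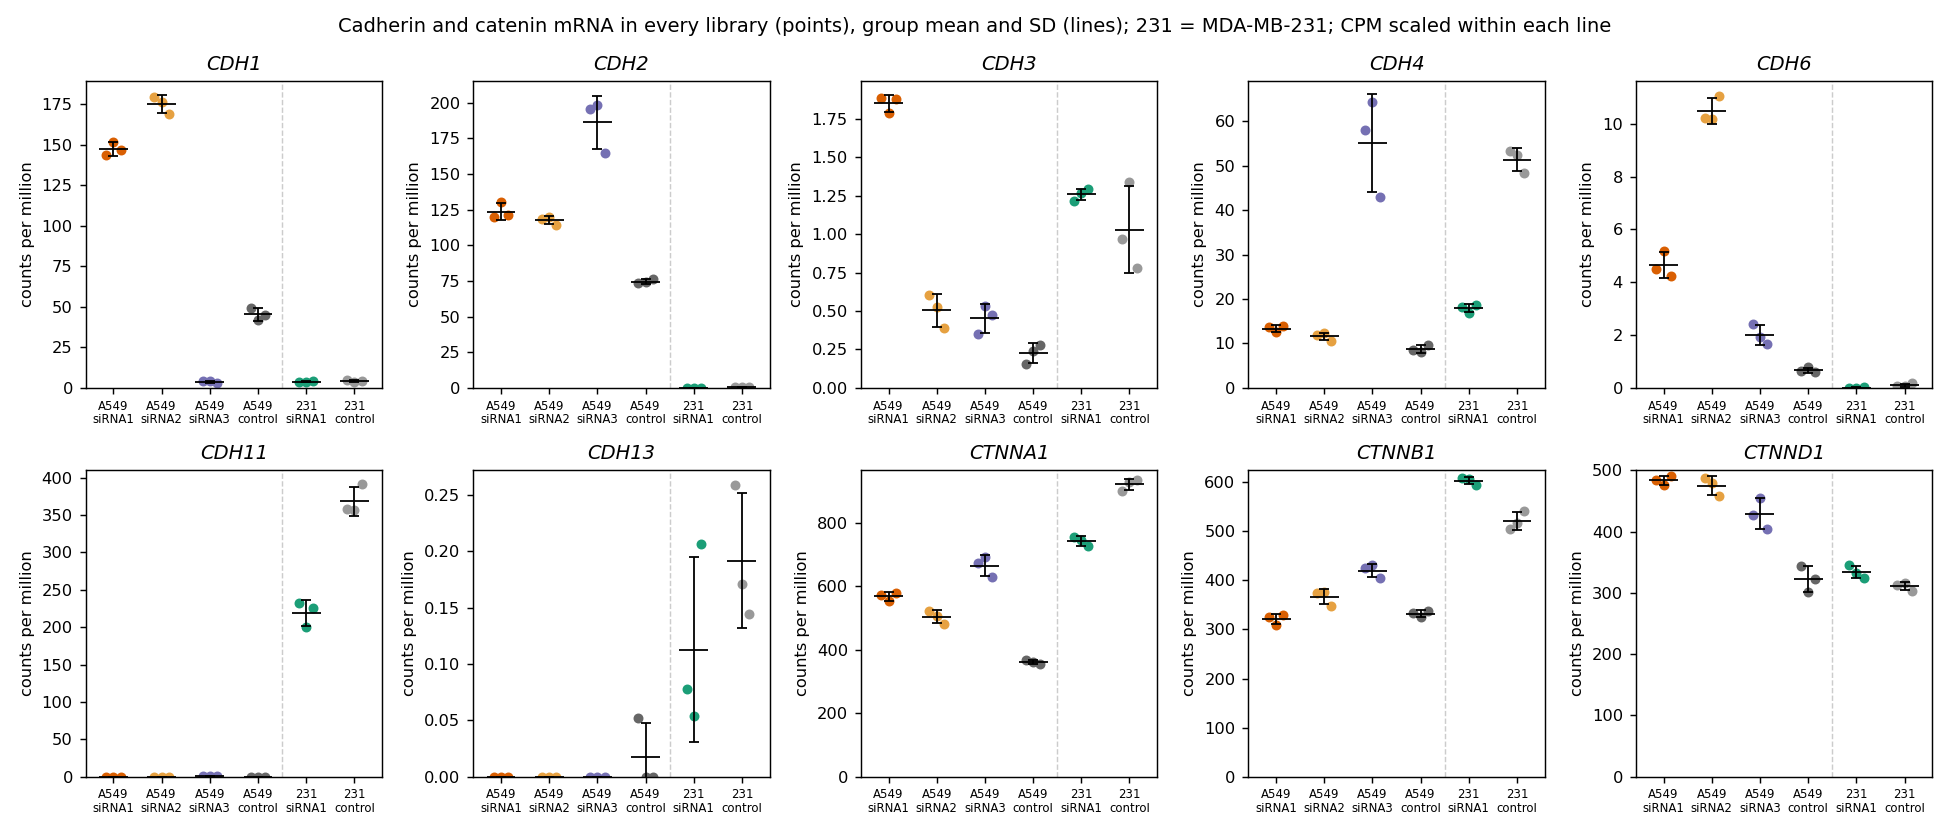
Normalised level (CPM, scaled within each line, axes from 0) of the 10 genes in each of the 18 libraries, by group. Points are libraries, horizontal lines are means and bars are SD over 3 libraries. CDH1 sits at 143 to 179.6 CPM with siRNA1 and siRNA2 and at 2.96 to 4.24 CPM with siRNA3, with A549 control at 41.7 to 49.5.

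CDH2 was higher than control with every siRNA in A549 and lower with siRNA1 in MDA-MB-231. A549 libraries had 119.7, 130.2 and 121 CPM with siRNA1, 118, 120.0 and 114.5 CPM with siRNA2, and 196, 198 and 164.6 CPM with siRNA3, against 73.2, 73.9 and 76.4 CPM in control. All 9 siRNA libraries lay above all 3 control libraries, siRNA3 was highest, and siRNA1 and siRNA2 overlapped. The log2 differences were 0.73 ± 0.08, 0.66 ± 0.08 and 1.32 ± 0.08.

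In MDA-MB-231 CDH2 was near its limit of detection, with 7, 5 and 8 counts with siRNA1, against 15, 13 and 31 counts in control. The groups did not overlap, and control library 3 was the highest. The log2 difference was -1.80 ± 0.40 (edgeR, adjusted p = 0.00374). CDH2 reached the minimum count of 10 in the control libraries alone, so a gene with this few counts entered the test only because it was higher there, and with no filter the value was -1.79 (edgeR, adjusted p = 0.00219). Without control library 3 it was -1.41 (edgeR, adjusted p = 0.0109). With TPM plus 1 it was -0.28 (limma-trend, adjusted p = 0.0283), as a pseudocount of 1 TPM exceeds the level of this gene here.

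CDH3 and CDH1 are neighbours on chromosome 16 in the RefSeq annotation, with CDH3 next to CDH1 and no other protein-coding gene between them. In A549, CDH3 was much lower than CDH1 and did not share its direction with siRNA3. It had 1.89, 1.79 and 1.88 CPM with siRNA1, 0.602, 0.524 and 0.389 CPM with siRNA2, and 0.348, 0.534 and 0.476 CPM with siRNA3, against 0.156, 0.241 and 0.281 CPM in control. These are 6 to 76 counts per library, and siRNA2 and siRNA3 overlapped each other but not control. On the log2 scale it differed from control by 3.01 ± 0.25, 1.15 ± 0.30 and 0.98 ± 0.31, the last of them positive where that of CDH1 was negative. On log2 of TPM plus 1 the CDH3 values were 0.95, 0.20 and 0.15. In MDA-MB-231 the ranges were 1.22 to 1.29 CPM with siRNA1 and 0.781 to 1.34 CPM in control, and the log2 difference of 0.30 ± 0.22 did not pass the test (edgeR, adjusted p = 0.273).

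CDH4 was highest with siRNA3 in A549 and was lower with siRNA1 in MDA-MB-231. A549 libraries had 13.6, 12.5 and 13.9 CPM with siRNA1, 11.9, 12.3 and 10.6 CPM with siRNA2, and 58.0, 64.5 and 43.0 CPM with siRNA3, against 8.56, 7.99 and 9.68 CPM in control. No siRNA library overlapped control, and library 3 was the lowest of the siRNA3 group. As log2 differences these were 0.61 ± 0.14, 0.40 ± 0.14 and 2.66 ± 0.14. In MDA-MB-231 CDH4 fell to 18.2, 16.9 and 18.8 CPM with siRNA1, against 53.45, 52.4 and 48.4 CPM in control, a log2 difference of -1.52 ± 0.07 (edgeR, adjusted p = 1.33e-07).

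CDH6 was higher with all 3 siRNAs in A549, most with siRNA2. Its levels were 4.52, 5.199 and 4.22 CPM with siRNA1, 10.2, 10.2 and 11.1 CPM with siRNA2, and 2.41, 1.94 and 1.67 CPM with siRNA3, against 0.624, 0.777 and 0.588 CPM in control. The 4 groups did not overlap and ran in the order siRNA2, siRNA1, siRNA3 and control. Set against control, the log2 values were 2.81 ± 0.17, 3.98 ± 0.16 and 1.60 ± 0.18. On log2 of TPM plus 1, which shrinks the change of genes at such low levels, CDH6 differed by 0.94, 1.58 and 0.32. In MDA-MB-231 it had 0, 0 and 1 counts with siRNA1, against 2, 2 and 6 counts in control, too few to be tested. The ratio of summed counts, scaled to library size, was 0.0881 (exact 95% interval 0.00203 to 0.619, counting error only).

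CDH11 marked the MDA-MB-231 line. It had 232.5, 199.8 and 225 CPM with siRNA1, against 358.5, 357 and 391 CPM in control. The siRNA1 libraries lay below all control libraries, and the log2 difference was -0.75 ± 0.07 (edgeR, adjusted p = 9.07e-06). In A549 it had 3, 1 and 3 counts with siRNA1, 2, 0 and 4 counts with siRNA2, and 6, 5 and 4 counts with siRNA3, against 1, 1 and 2 counts in control. It did not pass the count filter in A549. CDH13 had 0 counts in all 9 A549 siRNA libraries, against 2, 0 and 0 counts in control. In MDA-MB-231 CDH13 had 3, 2 and 8 counts with siRNA1, against 8, 5 and 5 counts in control, and it was not tested in that line.

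Summed by length-corrected level, the 7 cadherins were more abundant with each siRNA in A549 and less abundant with siRNA1 in MDA-MB-231. The sum was 142.8 ± 9.35 TPM with siRNA1, 136 ± 0.635 with siRNA2 and 104 ± 20.8 with siRNA3, against 54.5 ± 3.22 TPM in A549 control (SD, n = 3 each). It was 82.0 ± 7.43 TPM with siRNA1, against 136 ± 10.2 TPM in MDA-MB-231 control. In A549 control CDH2 made up 62.6% of the sum and CDH1 32.4%.

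The mixture changed with the siRNA. CDH1 made up 48.0% and CDH2 47.2% of the sum with siRNA1, and 53.3% and 42.1% with siRNA2. With siRNA3 CDH1 made up 1.42%, CDH2 82.8% and CDH4 15.1%, against 4.58% for CDH4 in control. The ratio of CDH1 to CDH2 on the TPM scale was 0.994 to 1.03 with siRNA1, 1.245 to 1.296 with siRNA2 and 0.0150 to 0.0182 with siRNA3, against 0.477 to 0.574 in A549 control. In MDA-MB-231, CDH11 held 88.9% with siRNA1 and 85.2% in control, and CDH4 held 7.63% with siRNA1 and 12.5% in control. The part of THY1, CD68 and the other markers (values above) in the CDH1 values and the cadherin mixture was not tested.

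**Figure D2:**
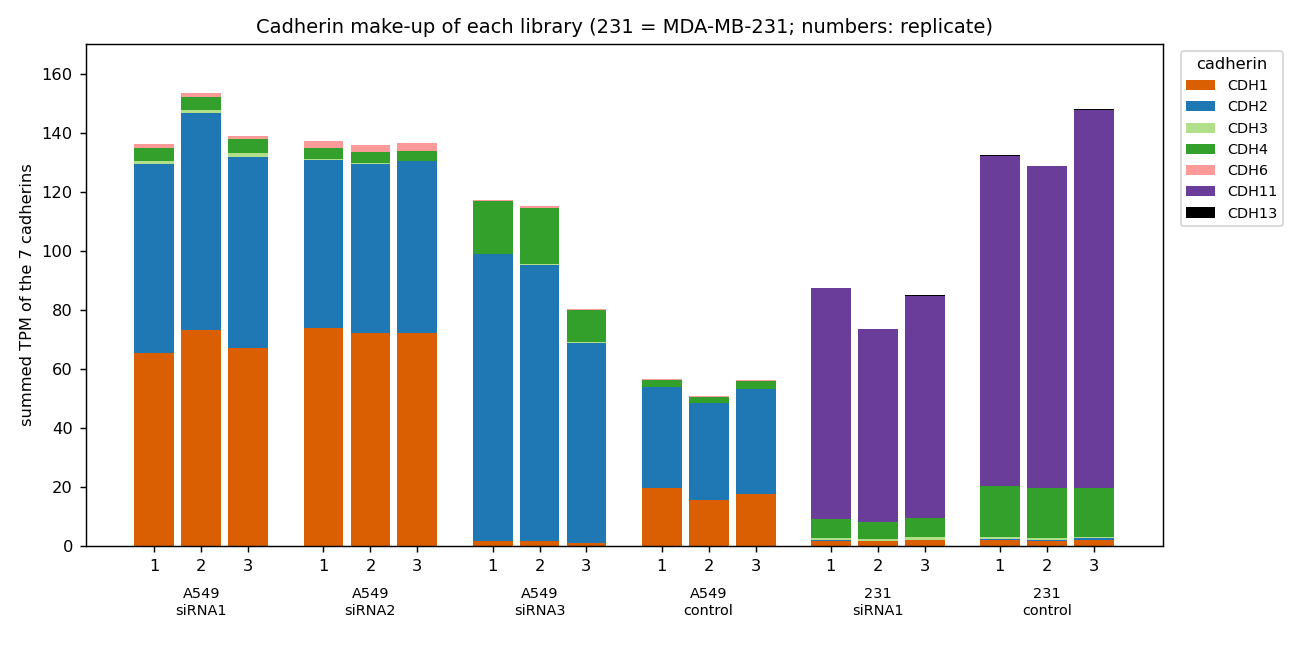
Stacked length-corrected levels (TPM, axis from 0) of the 7 cadherins in each library, numbered by replicate within its group. Colours are cadherins, and the siRNA3 bars hold almost no CDH1 (1.42% on average), whereas MDA-MB-231 bars are mostly CDH11 (88.9% with siRNA1 and 85.2% in control).

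Among the catenins, CTNNA1 followed the pattern of opposite sides in the lines. Its A549 levels were 573, 553 and 579.5 CPM with siRNA1, 523, 508 and 482 CPM with siRNA2, and 673, 694 and 628 CPM with siRNA3, against 369, 362 and 356 CPM in control. Every siRNA library was above every control library, and siRNA3 was highest. The log2 differences were 0.65 ± 0.07, 0.48 ± 0.07 and 0.88 ± 0.07. In MDA-MB-231 it fell to 755.5, 746 and 727 CPM with siRNA1, against 902, 928 and 934 CPM in control, a log2 difference of -0.31 ± 0.04 (edgeR, adjusted p = 0.00011).

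CTNNB1 moved least in A549. It had 326, 309 and 329.5 CPM with siRNA1, 375, 376 and 349 CPM with siRNA2, and 425, 431 and 405 CPM with siRNA3, against 334, 325 and 338 CPM in control. The siRNA1 libraries overlapped control, while those of siRNA2 and siRNA3 lay above it. The log2 differences were -0.05 ± 0.07, 0.14 ± 0.07 and 0.34 ± 0.07, and the siRNA1 value was 0.21 on the log2 of TPM plus 1, where the median of all genes was 0.23. In MDA-MB-231 CTNNB1 rose to 609, 606 and 595 CPM with siRNA1, against 505, 518 and 541 CPM in control, a log2 difference of 0.21 ± 0.04 (edgeR, adjusted p = 0.00213).

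CTNND1, which protects cadherins at the membrane from endocytosis, was higher with each siRNA in A549. Levels were 484, 475 and 491 CPM with siRNA1, 487, 479 and 457 CPM with siRNA2, and 427, 455 and 404.5 CPM with siRNA3, against 344, 302 and 322.5 CPM in control. All siRNA libraries lay above control, and siRNA1 and siRNA2 overlapped. The log2 differences were 0.58 ± 0.07, 0.56 ± 0.07 and 0.41 ± 0.07. In MDA-MB-231 it had 345, 333 and 324 CPM with siRNA1, against 313, 316 and 303 CPM in control. These ranges did not overlap, but the log2 difference of 0.10 ± 0.05 did not pass the test (edgeR, adjusted p = 0.0757), whereas on log2 of TPM plus 1 it was 0.18 (limma-trend, adjusted p = 0.0109). CTNND1 shares reads with the readthrough gene TMX2-CTNND1, which was listed at 0 to 3.13 TPM, and its estimated count had decimals in 8 of 18 libraries.

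The summed catenin level was 724 ± 6.48 TPM with siRNA1, 638 ± 11.5 with siRNA2 and 694.5 ± 89.2 with siRNA3, against 460.3 ± 24.6 TPM in A549 control. In MDA-MB-231 it was 976 ± 23.6 TPM with siRNA1 and 971 ± 45.5 TPM in control (SD, n = 3 each), a difference smaller than the spread in either group. There CTNNA1 averaged 450.3 ± 11.2 TPM with siRNA1 and 531 ± 23.0 TPM in control, and CTNNB1 averaged 397 ± 7.28 TPM with siRNA1 and 327 ± 20.9 TPM in control.

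**Figure D3:**
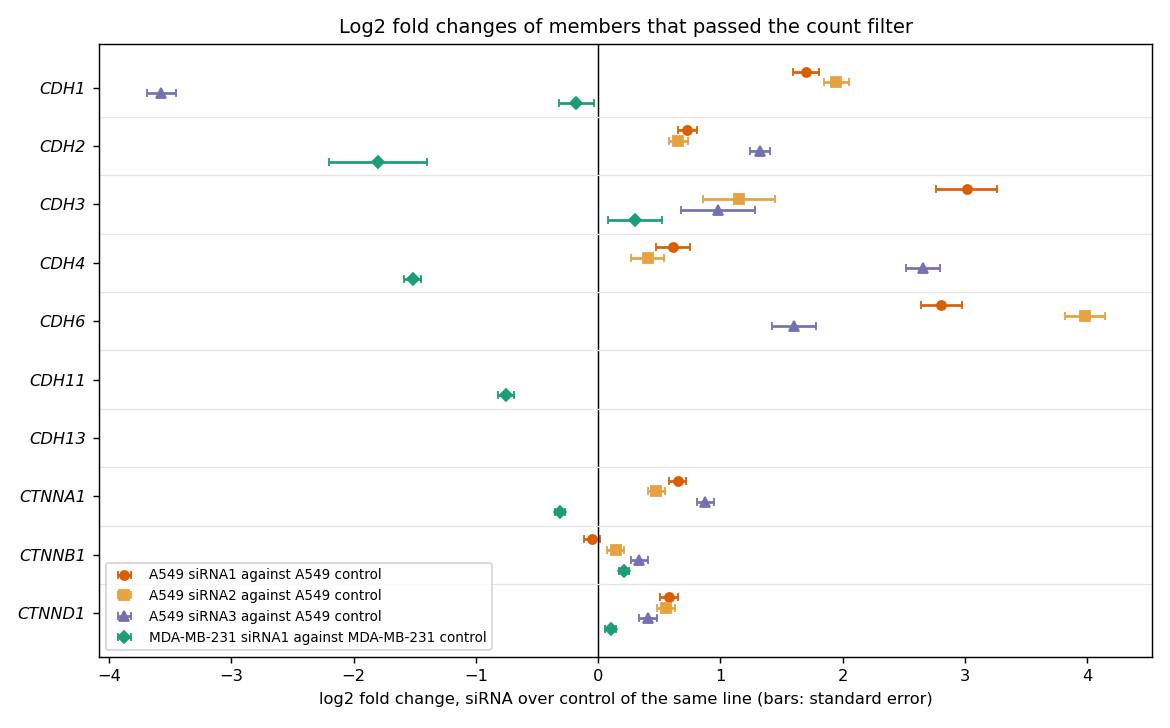
Log2 fold change (horizontal axis, siRNA over control of the same line) with standard error for each gene that passed the count filter, with CDH11 missing in A549, CDH6 in MDA-MB-231 and CDH13 in both. Symbols are the 4 siRNA comparisons. CDH1 is at 1.70 and 1.95 with siRNA1 and siRNA2 and at -3.57 with siRNA3, and CDH2, CDH4 and CTNNA1 are on opposite sides of 0 with siRNA1 in the lines.

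Counted over the A549 comparisons, 8 of the 10 genes passed the count filter. All 3 siRNA libraries lay beyond all 3 control libraries for 7 genes with siRNA1 (7 above), for 8 with siRNA2 (8 above) and for 9 with siRNA3 (8 above, CDH1 below). Among all genes tested the share that did so was 76.8%, 70.9% and 64.2%. The 9 with siRNA3 include CDH11, which did not pass the filter and so is not among the genes tested. The median log2 difference of the 8 genes was 0.69, 0.61 and 0.93, beside 0.09, 0.04 and 0.00 over all genes tested. Comparisons within A549 share their control libraries.

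In MDA-MB-231, 8 of the 10 genes passed the filter and 5 changed with siRNA1 (edgeR, adjusted p under 0.05): CTNNB1 rose, and CDH2, CDH4, CDH11 and CTNNA1 fell. CDH2 passed the filter through control alone and was not tested with a filter of 1 CPM in 3 libraries, which left 4 called. The share of all genes that changed was 55.3% (27.5% rose, 27.8% fell). The groups did not overlap for 7 of the 10 genes (2 above, 5 below), as for 62.6% of all genes tested. The 5 below include CDH6, which did not pass the filter and so is not among the genes tested. Alongside, the endothelial markers summed to 11.95 to 13.1 TPM with siRNA1, against 17.96 to 18.9 TPM in control, and all 3 of those tested fell. Fibroblast markers summed to 2.48 to 3.3 TPM with siRNA1, against 5.23 to 6.36 TPM in control. Of the leukocyte markers, CD14 rose (0.43 ± 0.10) and LYZ fell (-1.41 ± 0.18, edgeR, larger adjusted p = 0.00376). The part of these markers in the cadherin values was not tested.

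The control libraries of the lines differed in nearly all of these genes. Between A549 control and MDA-MB-231 control, 9 genes passed the filter and 8 differed (edgeR, adjusted p under 0.05), 3 of them higher in A549 and 5 lower, where 82.0% of all genes differed (40.7% higher, 41.3% lower). For 9 of the 10 genes the libraries of one line lay beyond all those of the other, as for 83.3% of all genes tested. These 9 include CDH13, which did not pass the filter and so is not among the genes tested. Line, culture and any batch cannot be told apart here. CDH1 averaged 17.6 ± 2.01 TPM in A549 control and 1.93 ± 0.276 TPM in MDA-MB-231 control (log2 difference 3.45 ± 0.11, edgeR, adjusted p = 6.23e-12). CDH2 averaged 34.0 ± 1.295 TPM in A549 control and 0.35 ± 0.156 TPM in MDA-MB-231 control (6.95 ± 0.15, edgeR, adjusted p = 1.34e-13). The type II cadherin CDH6 was also higher in A549, by 2.66 ± 0.41 (edgeR, adjusted p = 4.12e-05). It had under 10 counts in every MDA-MB-231 control library and passed the filter through A549 alone, as CDH3 and CDH11 did through MDA-MB-231. The counts of genes that differed include CDH3, CDH6 and CDH11, so those counts give no support for a direction. With no filter the CDH6 value was 2.66 (edgeR, adjusted p = 1.55e-05), and on log2 of TPM plus 1 it was 0.16 (limma-trend, adjusted p = 0.0176).

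The cadherins lower in A549 control were CDH3 (-2.10 ± 0.33, edgeR, adjusted p = 5.17e-05), CDH4 (-2.50 ± 0.09, edgeR, adjusted p = 2.51e-11) and CDH11. CDH3 had 6, 9 and 11 counts in A549 control and passed the filter through MDA-MB-231 alone. Its adjusted p-value therefore gives no support for a difference. CDH11 had 4 counts over the 3 A549 control libraries and 35020 over the 3 MDA-MB-231 control libraries, a ratio of 9.41e-05 after scaling (exact 95% interval 2.56e-05 to 0.000241, counting error only). Among catenins, CTNNA1 averaged 181 ± 6.74 TPM in A549 control and 531 ± 23.0 TPM in MDA-MB-231 control (log2 difference -1.29 ± 0.06, edgeR, adjusted p = 1.73e-10). CTNNB1 averaged 181 ± 9.55 TPM in A549 control and 327 ± 20.9 TPM in MDA-MB-231 control (-0.60 ± 0.06, edgeR, adjusted p = 8.22e-07). CTNND1 did not pass on counts (0.11 ± 0.07, edgeR, adjusted p = 0.156). Its direction turned on the TPM scale, at -0.20 (limma-trend, adjusted p = 0.0316), where the median of all genes was also -0.20, and it passed on counts without A549 control library 2 (0.17, edgeR, adjusted p = 0.0350).

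Isoform use can be read from the mean transcript length that RSEM weights by isoform share. For CTNND1 this was 6042 to 6066 bases with siRNA1, 6008 to 6022 with siRNA2 and 5942 to 6060 with siRNA3, against 6070 to 6072 bases in A549 control. Every A549 siRNA library was shorter than every control library, and library 3 of siRNA3 was the shortest. That library was also the shortest of A549 for CTNNA1, at 3676 bases, against 3793 and 3791 in libraries 1 and 2 of siRNA3. No share of all genes is given for lengths. In MDA-MB-231 it was 5881 to 5907 bases with siRNA1 and 5885 to 5914 bases in control, which overlapped. A549 control exceeded MDA-MB-231 control by 168 bases on average with no overlap (exact permutation test, two-sided p = 0.1, the smallest that 3 against 3 allows). The same difference was -6.5 bases for CTNNA1 (exact permutation p = 0.1) and -6.8 bases for CTNNB1 (exact permutation p = 0.2).

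CDH2 had a weighted length of 4038 to 4156 bases over the A549 libraries and 3855 bases in all 6 MDA-MB-231 libraries. The MDA-MB-231 values rest on 5 to 31 counts each, so isoforms were not resolved there.

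**Figure D4:**
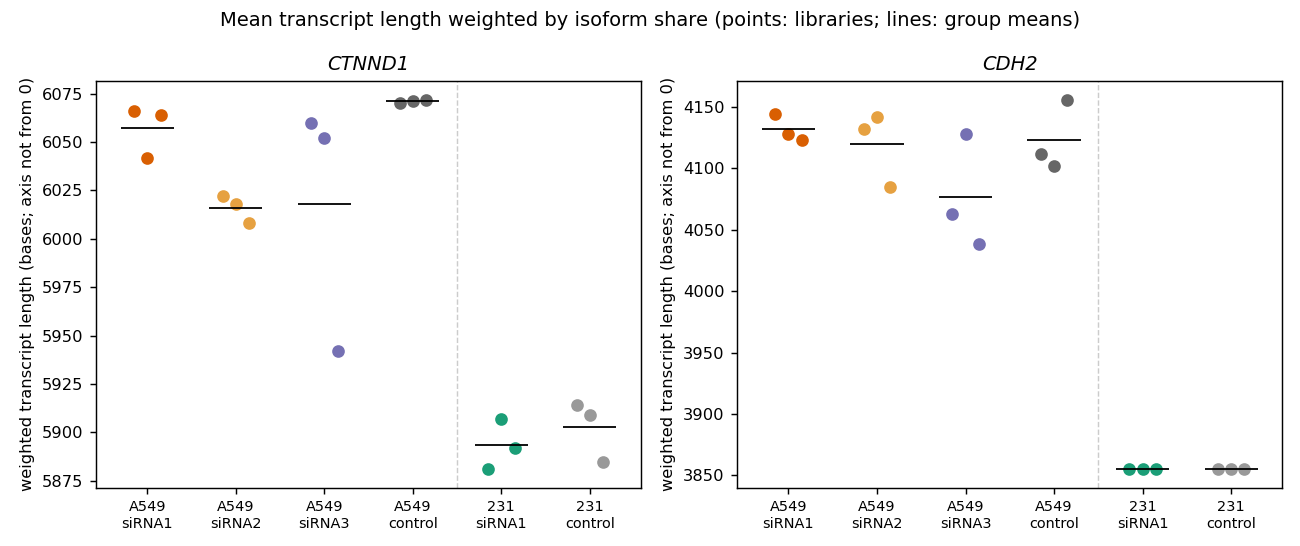
Weighted transcript length in bases (axes do not start at 0) of CTNND1 and CDH2 in each library. Points are libraries and lines group means, with CTNND1 at 6070 to 6072 bases in A549 control and at 5885 to 5914 bases in MDA-MB-231 control.

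Genes around the cadherin complex that are not among the 10 were read from 6 lists of 64 genes. With siRNA1 in A549, 41 of 53 tested genes changed (29 rose, 12 fell), where 71.7% of all genes changed (39.0% rose, 32.8% fell). With siRNA2 42 of 53 changed (28 rose, 14 fell), where 60.9% of all genes changed (32.5% rose, 28.4% fell), and with siRNA3 33 of 53 changed (20 rose, 13 fell), where 61.3% of all genes changed (30.9% rose, 30.4% fell). In MDA-MB-231 30 of 46 changed with siRNA1 (15 rose, 15 fell), beside the 55.3% of all genes. The A549 totals include CDH5, CDH8, CDH9, CDH16 and CTNNA2, which had under 10 counts in every A549 control library. They also include CDH10, with 8 to 12 counts in A549 control, and SNAI3, with 3 to 21. The MDA-MB-231 total includes NECTIN4, which had under 10 counts in every control library of that line. These genes passed the count filter only through siRNA groups in which they were higher, so the totals give no support for a direction. The same shares of all genes apply to each list below.

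Other cadherins were mostly at low levels. Of 9 tested, 7 rose and 1 fell with siRNA1, 8 rose with siRNA2 and 3 rose with siRNA3, but 4 of the 9 (CDH5, CDH8, CDH9 and CDH16) had under 10 counts in every A549 control library. CDH10 had 8 to 12 counts there. These 4 and CDH10 passed the count filter only through siRNA groups in which they were higher, so the counts of the list give no support for a direction. CDH17, the intestinal LI-cadherin, averaged 16.2 TPM with siRNA1 and 30.4 TPM with siRNA2, against 1.72 TPM in A549 control (log2 difference 2.99 ± 0.17 and 4.05 ± 0.17, edgeR, adjusted p = 2.69e-09 and 1.11e-09). With siRNA3 CDH17 averaged 1.52 TPM and did not pass (-0.17 ± 0.19, edgeR, adjusted p = 0.457). CDH24 rose with siRNA3 (0.54 ± 0.10, edgeR, adjusted p = 0.000492) and fell with siRNA1 in A549 (-0.72 ± 0.11, edgeR, adjusted p = 3.76e-05) and in MDA-MB-231 (-0.72 ± 0.09, edgeR, adjusted p = 0.000109), where both tested members fell. With a filter of 1 CPM in 3 libraries, the called counts in A549 were 4, 3 and 1.

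Among 12 tested junction partners, 8 rose and 2 fell with siRNA1, 9 rose and 3 fell with siRNA2, and 7 rose and 2 fell with siRNA3, while 3 rose and 5 fell in MDA-MB-231. CTNNA2, counted as rising with each siRNA in A549, had under 10 counts in every control library there. NECTIN4, counted as rising in MDA-MB-231, had under 10 counts in every control library of that line. Both passed the count filter only through siRNA groups in which they were higher, so their calls give no support for a direction. The nectin NECTIN4, an immunoglobulin-like adhesion protein, rose to 14.2 TPM with siRNA1, 1.39 TPM with siRNA2 and 1.75 TPM with siRNA3, against 0.317 TPM in A549 control (5.22 ± 0.17, 2.03 ± 0.19 and 2.48 ± 0.19, edgeR, largest adjusted p = 9.15e-07). Plakoglobin (JUP), a close relative of beta-catenin, rose to 251 TPM with siRNA1, 163 TPM with siRNA2 and 67.2 TPM with siRNA3, against 56.3 TPM in A549 control (1.93 ± 0.10, 1.45 ± 0.10 and 0.27 ± 0.10, edgeR, largest adjusted p = 0.0267). The siRNA3 call of JUP was lost with TPM plus 1 (0.25, limma-trend, adjusted p = 0.0796) and without siRNA3 library 1 or 2 or control library 1 or 2 (edgeR, adjusted p from 0.055 to 0.131). LIMA1, an actin-binding protein that joins alpha-catenin to actin, rose to 47.6 TPM with siRNA1, 41.8 TPM with siRNA2 and 93.6 TPM with siRNA3, against 18.2 TPM in A549 control (1.14 ± 0.08, 1.11 ± 0.08 and 2.36 ± 0.08, edgeR, largest adjusted p = 6.57e-08). The alpha-catenin relative CTNNAL1 fell with siRNA1 and siRNA2 in A549 (-1.86 ± 0.12 and -1.48 ± 0.12, edgeR, larger adjusted p = 2.37e-07), did not pass with siRNA3 (-0.27 ± 0.12, edgeR, adjusted p = 0.0584), and fell with siRNA1 in MDA-MB-231 (-0.80 ± 0.05, edgeR, adjusted p = 8.27e-07).

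Of 10 genes for the processing and turnover of cadherins, all tested, 7 rose and 2 fell with siRNA1, 5 rose and 2 fell with siRNA2, and 5 rose and 1 fell with siRNA3. The membrane protease ADAM15 rose to 56.8 TPM with siRNA1, 94.9 TPM with siRNA2 and 60.4 TPM with siRNA3, against 25.8 TPM in A549 control (0.89 ± 0.10, 1.78 ± 0.10 and 1.23 ± 0.10, edgeR, largest adjusted p = 3.29e-06). Nicastrin (NCSTN), a subunit of gamma-secretase, rose with siRNA1 (0.90 ± 0.08), siRNA2 (1.39 ± 0.08) and siRNA3 (0.29 ± 0.08) in A549 and fell with siRNA1 in MDA-MB-231 (-0.58 ± 0.05, edgeR, largest adjusted p of the 4 = 0.00486). In MDA-MB-231 4 of the 10 rose and 3 fell.

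For the repressors of CDH1, 2 rose and 3 fell of 7 tested with siRNA1, 1 rose and 4 fell with siRNA2, 2 rose and 0 fell with siRNA3, and 2 of 5 rose in MDA-MB-231. SNAI3, counted as rising with siRNA1, had 3 to 21 counts in A549 control. It passed the count filter only through siRNA groups in which it was higher, so its call gives no support for a direction. SNAI2 (Slug) rose to 7.29 TPM with siRNA1 and to 8.09 TPM with siRNA3, against 0.96 TPM in A549 control (2.67 ± 0.16 and 3.096 ± 0.16, edgeR, larger adjusted p = 5.45e-09), and it rose with siRNA2 as well (0.82, edgeR, adjusted p = 0.0014). ZEB1 fell with siRNA1 (-0.73 ± 0.14) and siRNA2 (-0.96 ± 0.14, edgeR, larger adjusted p = 0.000426) and did not pass with siRNA3 (0.15 ± 0.14, edgeR, adjusted p = 0.361) or in MDA-MB-231 (0.03 ± 0.07, edgeR, adjusted p = 0.774). SNAI1 (Snail) fell with siRNA1 (-1.56 ± 0.15, edgeR, adjusted p = 6.42e-07) and siRNA2 (-0.86 ± 0.15, edgeR, adjusted p = 0.000179) and rose in MDA-MB-231 (0.81 ± 0.12, edgeR, adjusted p = 0.00032). ZEB2 fell with siRNA2 (-0.91 ± 0.17) and rose with siRNA3 (0.66 ± 0.16) and in MDA-MB-231 (0.58 ± 0.08, edgeR, largest adjusted p of the 3 = 0.00267).

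Of 8 destruction complex genes tested, which mark beta-catenin for degradation, 4 rose and 2 fell with siRNA1, 2 rose and 2 fell with siRNA2, 3 rose and 4 fell with siRNA3, and 5 rose and 1 fell in MDA-MB-231. APC, its scaffold, fell with siRNA1 (-0.50 ± 0.12), with siRNA3 (-0.45 ± 0.12) and in MDA-MB-231 (-0.61 ± 0.06, edgeR, largest adjusted p of the 3 = 0.0044). The siRNA1 call of APC in A549 was lost with TPM plus 1 (-0.23, limma-trend, adjusted p = 0.205). In MDA-MB-231 APC was the only gene of this list that fell. GSK3B rose with siRNA1 (0.81 ± 0.096), with siRNA3 (0.33 ± 0.095) and in MDA-MB-231 (0.55 ± 0.05, edgeR, largest adjusted p of the 3 = 0.00894). AMER1 rose with siRNA1 (0.50 ± 0.13) and in MDA-MB-231 (0.44 ± 0.08) and fell with siRNA3 (-1.35 ± 0.14, edgeR, largest adjusted p of the 3 = 0.00453). Among genes known as beta-catenin targets, 6 of 7 tested fell and none rose with siRNA3, 1 rose and 2 fell with siRNA1, 3 rose and 3 fell with siRNA2, and 1 rose and 4 fell of 9 in MDA-MB-231. Over all genes, 30.4% fell and 30.9% rose with siRNA3, and the other shares are given above. AXIN2, a feedback inhibitor, fell to 2.42 TPM with siRNA3, against 8.59 TPM in control (-1.82 ± 0.09, edgeR, adjusted p = 1.97e-09). It rose with siRNA2 (0.39 ± 0.08, edgeR, adjusted p = 0.000759). With siRNA1 it did not pass in A549 (0.10 ± 0.08, edgeR, adjusted p = 0.258) or in MDA-MB-231 (-0.12 ± 0.09, edgeR, adjusted p = 0.297).

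CCND1 (cyclin D1), which many pathways drive, and TCF7, a beta-catenin partner, fell in all 4 comparisons. CCND1 averaged 244 TPM with siRNA1, 165.5 with siRNA2 and 73.3 with siRNA3, against 378 TPM in A549 control (-0.89 ± 0.08, -1.29 ± 0.08 and -2.37 ± 0.08, edgeR, largest adjusted p = 2.85e-07). In MDA-MB-231 it averaged 177 TPM with siRNA1, against 341 TPM in control (-1.02 ± 0.04, edgeR, adjusted p = 6.19e-08). TCF7 differed by -0.84, -0.52, -0.77 and -0.39 with siRNA1, siRNA2 and siRNA3 in A549 and siRNA1 in MDA-MB-231 (edgeR, largest adjusted p = 0.00231). RNF43, a membrane ubiquitin ligase, averaged 7.86 TPM with siRNA1, 8.01 TPM with siRNA2 and 0.647 TPM with siRNA3, against 1.69 TPM in A549 control. It rose with siRNA1 (1.96 ± 0.12) and siRNA2 (2.14 ± 0.12) and fell with siRNA3 (-1.43 ± 0.14, edgeR, largest adjusted p of the 3 = 1.71e-06), the same directions as CDH1 in A549. In MDA-MB-231 RNF43 rose with siRNA1 (0.55 ± 0.12, edgeR, adjusted p = 0.00316), where CDH1 did not pass the test.

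**Figure D5:**
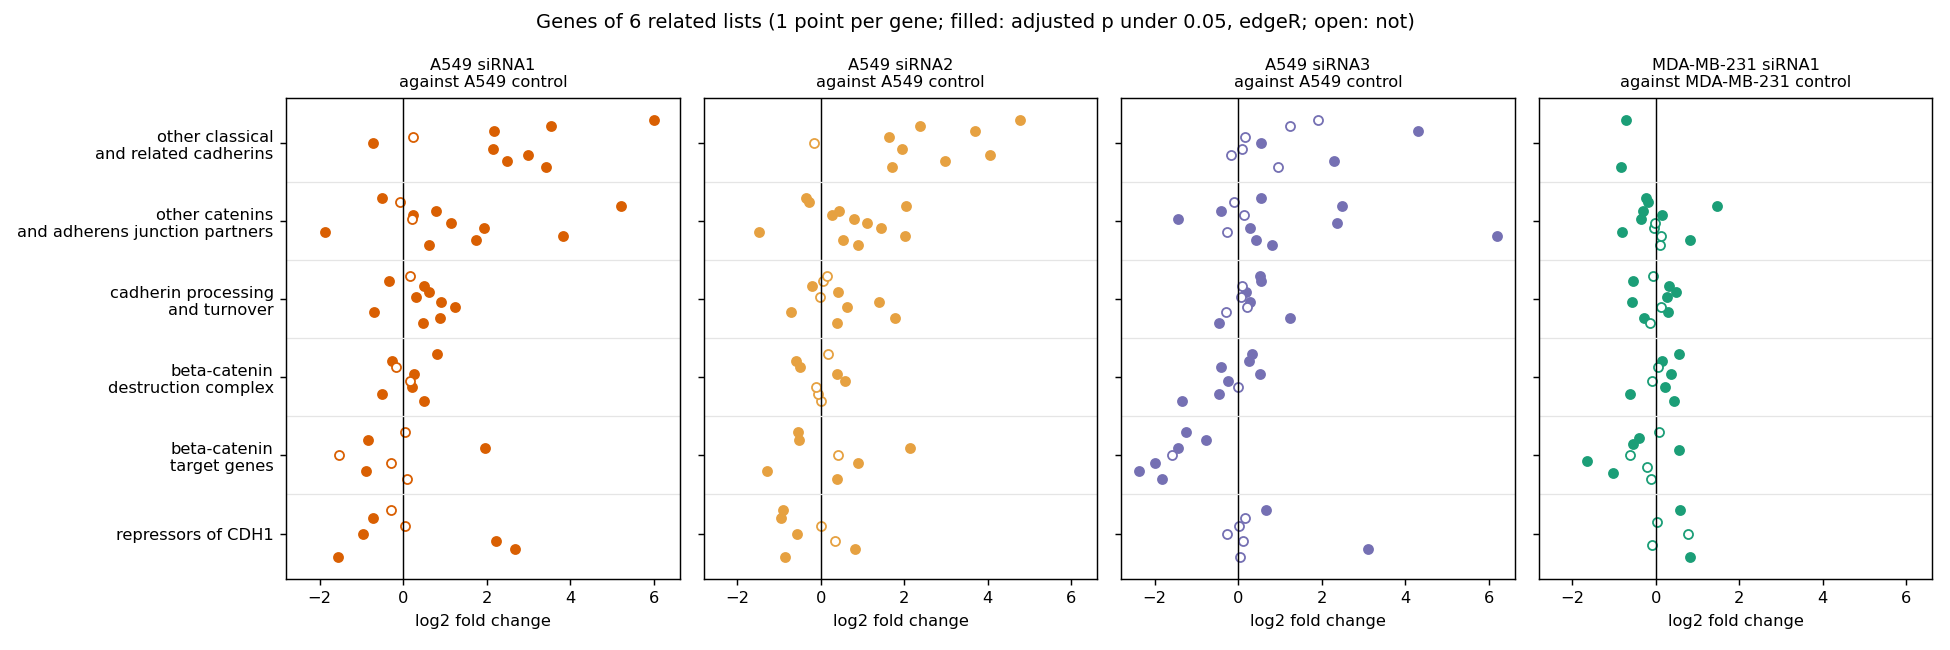
Log2 fold change of each tested gene of the 6 lists in the 4 siRNA comparisons, 1 panel each. Filled points passed the edgeR test and open ones did not, with 41 of 53 filled with siRNA1, 42 with siRNA2 and 33 with siRNA3 in A549 and 30 of 46 in MDA-MB-231.

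The genes most like CDH1 over the 12 A549 libraries, of 12612 compared by Pearson correlation of log2 CPM, were DRD1 (0.994), FGL1 (0.993), C5 (0.993), SULT2B1 (0.992) and TNFRSF21 (0.992). FGL1, a secreted liver protein, averaged 57.2 TPM with siRNA1, 46.1 with siRNA2 and 1.26 with siRNA3, against 16.2 TPM in control. For CDH2 they were SUSD1 (0.994), BNC2 (0.990), EPHB2 (0.989), CRISPLD2 (0.989) and HOXD10 (0.984). EPHB2, a receptor tyrosine kinase for ephrins, averaged 20.2 TPM with siRNA1, 14.3 with siRNA2 and 28.5 with siRNA3, against 7.12 TPM in control. The points are libraries of 4 groups, so these values mostly rank agreement of group means.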

How the data were processed

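RNA from 12 A549 and 6 MDA-MB-231 libraries was sequenced after ribosomal RNA removal (stranded TruSeq kit, per the labels' protocols). The submitters' processing notes name RSEM and hg19. RSEM's version, the aligner and the annotation release were not given in the sources used here. As deposited, an expected count is the estimated number of reads of a gene, per the file headers, and was rounded here. TPM, per the file headers, corrects for length and sums to the same total in each library, and served for levels between genes. The deposited FPKM values were not used in a result. The deposited transcript length in bases is RSEM's isoform-weighted length, per the file headers. The log2 values and CPM were computed here from the deposited counts.

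Tests used edgeR 4.0.16 in R 4.3.3: TMM scaling, filterByExpr (minimum count 10, minimum total 15), quasi-likelihood F test with group means only, and Benjamini-Hochberg adjustment over all genes tested (threshold 0.05). One fit held the 12 A549 libraries, one the 6 MDA-MB-231 libraries and one the 6 control libraries. CPM is scaled within each line. Standard errors come from the fitted value and its F statistic. Lengths were compared by exact permutation tests. Totals of 30143047 to 40328208 counts limit precision for genes with few counts, and count intervals cover counting error only.

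The 10 genes and the lists (6 related, 3 of cell type markers) were chosen with earlier results of these data known. Named genes were the 10, BLM, up to 3 called genes per list and comparison with the largest change (average log2 CPM of at least 0), and the 5 most correlated with CDH1 and with CDH2 (average log2 CPM of at least 1). Not all are printed, and the summed level of the leukocyte list is not reported here. Alternatives were DESeq2 1.42.0 size factors and its Wald test, other count filters, log2 TPM with a pseudocount of 1 or 0.1 in limma 3.58.1 (limma-trend), the replicate number as a block, other libraries in the fit, and leaving out each library. The scripts were tested on simulated data. Promoter sequences are from RefSeq (GRCh38.p14).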

Additional observations from a re-analysis of the deposited data

Results flagged for a closer look

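With siRNA1, 3 of the genes that passed the count filter in both lines lay on opposite sides of control, every library of one line moving up and every library of the other moving down. CDH6 did so as well, but in MDA-MB-231 it had 0, 0 and 1 counts with siRNA1, against 2, 2 and 6 counts in control, and was not tested there. The log2 difference of CDH2 was 0.73 in A549 and -1.80 in MDA-MB-231, where it rests on 5 to 31 counts per library and passed the count filter through control alone. That of CDH4 was 0.61 in A549 and -1.52 in MDA-MB-231, and that of CTNNA1 was 0.65 in A549 and -0.31 in MDA-MB-231. The difference between the lines was not tested. Groups of 3 libraries are too small for the check for single outlying libraries.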

How the results depend on the processing

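Of 168 recomputed main values (CDH1 in A549 and the counts of called genes), 164 stayed the same and 4 moved by more than the spread between libraries. Of 1138 other recomputed values, 1071 stayed the same, 61 moved, 4 passed the threshold that had not, and 2 reversed. Of the 61, 30 were on the TPM scale and 31 under other settings, and they concern CDH2, CDH3, CDH4, CDH6 and the 3 catenins in A549 and the counts of other cadherins. CDH1 with siRNA1 was 1.90 on log2 of TPM plus 1 and 1.96 with TPM plus 0.1, with siRNA2 2.04 with TPM plus 0.1, and with siRNA3 -2.91 with TPM plus 1. The TPM scale shifted the median of all genes with siRNA1 to 0.23, against 0.09 on counts. Over the settings other than leaving out a library, 6 to 9 of the 10 genes were called between the control libraries. In MDA-MB-231 it was 4 to 6 of the 10 genes over those settings. Leaving out 1 library at a time gave 1.64 to 1.77, 1.89 to 2.01 and -3.66 to -3.42 for CDH1 with siRNA1, siRNA2 and siRNA3, 5 of the 10 genes (5 each time) called in MDA-MB-231 and 8 to 9 between the control libraries, and 38 to 43, 37 to 43, 29 to 34 and 25 to 30 related genes called (siRNA1, siRNA2 and siRNA3 in A549, then MDA-MB-231). CTNND1 between A549 control and MDA-MB-231 control reversed to -0.20 with TPM plus 1 and to -0.20 with TPM plus 0.1, and was 0.20 with all 18 libraries in 1 fit (edgeR, adjusted p = 0.00603). The cause was not tested. Of the lists, only the other cadherins moved by more than 1.5 times in count: 4, 3 and 1 called in A549 with a filter of 1 CPM in 3 libraries (8, 8 and 3 in the fits reported), 5 with siRNA2 when only its group and control were fitted, and 4 in MDA-MB-231 with all 18 libraries (2 in the fit reported).

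Same-numbered libraries did not deviate together (r from -0.29 to 0.13 over 18 A549 pairs, 1 above 0.1, and -0.12 to 0.12 over 3 MDA-MB-231 pairs). No shared effect of the replicate number was seen. With 3 libraries per group this cannot tell whether same-numbered libraries were prepared together. With the replicate number as a block CDH1 was 1.70, 1.95 and -3.58, the related genes called were 40, 42, 32 and 30, and 5 and 8 of the 10 genes were called. Genes under about 10 counts (CDH11 and CDH13 in A549, CDH6 and CDH13 in MDA-MB-231) were limited by depth.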
